A study of Mus musculus with 22 samples.

Results

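Collagen-expressing stromal cells of the mouse olfactory epithelium (OE) were chosen from 8 single-cell RNA-seq (scRNA-seq) libraries by their own transcripts, and 187 of 25185 cells (0.743%) met the rule. A cell barcode was kept when it held more than 500 genes and more than 1500 unique molecular identifiers (UMIs, 1 count per captured RNA molecule), with less than 20% of UMIs from mitochondrial genes. A kept cell was counted as stromal when Col1a1, Col1a2 and Col3a1 together had at least 5 UMIs. In addition, the sustentacular cell genes Cyp2g1, Cyp2a5 and Sec14l3 had to take less than 0.5% of UMIs, and the neutrophil genes S100a8 and S100a9 less than 5%. The sustentacular limit removed 4 cells and the neutrophil limit 7. Since measured levels of these genes chose the cells, the difference between stromal and other cells is given below as a description, with no test.

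The study asked how loss of UPF3B, a factor of nonsense-mediated RNA decay (NMD), affects the OE. Whole-body Upf3b-null males (labelled Upf3b-/-, hemizygous because the gene is X-linked) were compared with wild-type (WT) males on a C57BL/6 background (substrain C57BL/6J by the study's methods). For scRNA-seq, OE from 4 WT and 4 Upf3b-null mice of 7 to 8 weeks was dissociated, dead cells were removed, and each library came from 1 mouse. Bulk assays were made on mature olfactory sensory neurons (mOSNs) and not on stromal cells, in 2 forms. RNA-seq of 4 WT and 4 Upf3b-null samples used neurons that carry Omp-Cre and a Cre-dependent eYFP and were sorted for eYFP. RiboTag profiling of 3 WT and 3 Upf3b-null samples pulled down ribosome-bound RNA through a ribosomal tag that Omp-Cre switches on. In both bulk assays a sample pooled tissue from several mice of 8 to 9 weeks, and Omp-Cre limits the reporter, not the loss of Upf3b, to mature neurons.

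Fibrillar collagens are built from 3 chains wound into a helix inside the secretory pathway, and are trimmed, assembled and crosslinked outside the cell. Type I collagen (Col1a1 and Col1a2 chains) is the main protein of bone, tendon and skin, and type III collagen (Col3a1) is typical of loose connective tissue and vessel walls. Under the OE lies the lamina propria, a connective tissue that holds fibroblasts, vessels, glands and nerve bundles, and beneath it are the thin bones of the nasal turbinates. Osteoblasts lay down bone matrix, which is rich in type I collagen and in osteocalcin (Bglap), osteopontin (Spp1) and bone sialoprotein (Ibsp), and the transcription factor RUNX2 drives their formation.

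The cells were unevenly spread over the libraries, and this bears on every result that follows. WT 3, WT 4, Upf3b-null 1 and Upf3b-null 4 had 32, 27, 50 and 59 stromal cells, 168 together. The other 4 libraries had 19 together, with 6 in WT 1, 7 in WT 2, 5 in Upf3b-null 2 and 1 in Upf3b-null 3. Summed stromal UMIs were 105037 to 197369 in each of the former libraries and 3141 to 21647 in each of the latter, of 5024031 to 27673674 UMIs per library over all barcodes. Stromal levels are therefore given as the mean ± SD of the 4 larger libraries, in CPM, a gene's count scaled to 1000000 UMIs, of the UMIs summed over a library's stromal cells. Because the kit tags the 3′ end of each molecule once, CPM values need no correction for transcript length. The median stromal cell had 2814 UMIs and the median other cell 2850.5.

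Col1a2 was detected in 187 of 187 stromal cells, Col1a1 in 181 (96.8%) and Col3a1 in 98 (52.4%). A cell held a median of 28 UMIs of the 3 genes, 148 cells held 10 or more, and 46 held 100 or more. Just inside the threshold were 15 cells with 5 or 6 collagen UMIs, whose median total was 2885 UMIs. Just outside it were 197 cells with 3 or 4 collagen UMIs that met both other limits, with a median total of 3134 UMIs.

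Collagen UMIs were also found outside the stromal set. Cells outside the stromal set had summed collagen levels of 6.82, 15.2, 167 and 146 CPM in WT 1 to 4, and of 42.1, 29.4, 39.3 and 123 CPM in Upf3b-null 1 to 4. Of neutrophils, which are not known to make these collagens, 7 of 17 (41.2%) in WT 3 and 104 of 241 (43.2%) in WT 4 held at least 1 collagen UMI, and 63 of 567 (11.1%) in Upf3b-null 1 and 474 of 1423 (33.3%) in Upf3b-null 4 did. In WT 1 none of 93 did, which allows a share of up to 3.23% by counting error, in WT 2 it was 3 of 130 (2.31%), and in Upf3b-null 2 and 3 it was 9.68% and 12.7%. In WT 3, WT 4, Upf3b-null 1 and Upf3b-null 4 the median neutrophil had 3341, 2359, 3430 and 2531 UMIs. The median stromal cell there had 3035, 3406, 3147 and 2560. The shares were thus highest in 3 of the 4 libraries with most stromal cells, that of WT 3 resting on few neutrophils. Whether these UMIs came from free RNA or from second cells, and their part in the stromal cells near the threshold, was not tested.

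The label held for most, but not all, of the 187 cells. Cells in which the markers of neutrophils, of erythroid cells, of mOSNs, of B cells or of macrophages, each set summed on its own, took 1% of UMIs or more are called mixed here, and there were 60 of them (32.1%). Of these, 40 were in Upf3b-null 4 and 11 in WT 4, and no other library had more than 4. Haemoglobin and Alas2 transcripts passed 1% in 51 cells, neutrophil markers in 23 and mOSN markers in 14, while endothelial, macrophage, B cell and T cell markers passed it in 0 cells. The rule itself limits sustentacular and neutrophil genes, so their low counts say nothing about the label. In cells outside the stromal set, erythroid markers summed to 45678 CPM in WT 3, 40526 in WT 4, 8025 in Upf3b-null 1 and 37205 in Upf3b-null 4, so in 3 of these libraries 1% of UMIs, or 10000 CPM, is below the mean level of other cells. Whether haemoglobin RNA in stromal cells came from free RNA or from a second cell was not tested. Neutrophil markers summed to 92.4, 72.3, 2513 and 2866 CPM in stromal cells of WT 1 to 4 and to 2695, 273, 7323 and 9718 CPM in those of Upf3b-null 1 to 4, and S100a8 was the most abundant of them in 6 libraries, S100a9 in WT 1 and Camp in WT 2. The T cell genes Cd3g and Cd3e and the mural cell genes Mcam, Higd1b and Myh11 were at 0. Pairs of libraries shared 2 to 70 barcodes, no barcode was stromal in more than 1 library, and 5 stromal barcodes were also a kept cell of another library.

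Osteoblast markers passed 1% of UMIs in more cells than any other marker set but the collagens. At least 1% of UMIs came from Bglap, Bglap2, Ibsp, Sp7, Alpl, Runx2, Dmp1, Phex and Ifitm5 together in 55 of 187 cells (29.4%), called bone-matrix cells below. They were 33 of 50 cells (66.0%) in Upf3b-null 1, 11 of 59 (18.6%) in Upf3b-null 4, 4 of 32 (12.5%) in WT 3 and 5 of 27 (18.5%) in WT 4. Upf3b-null 1 therefore stood apart from the other 3 libraries in what its collagen-expressing cells were.

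Bglap, Spp1, Mmp13 and Ibsp, genes of bone matrix and its turnover, stood among the first 9 by ratio of stromal to other cells, and their start regions are shown so that the values can be read beside the sequence. The windows run from 250 bases before to 50 bases after the annotated start (RefSeq, GRCm38.p6), on the gene's strand. They were searched for TGTGGT on both strands, the core of the motif bound by RUNX factors, and capitals mark a match, here read as ACCACA because each match lies on the strand opposite to the gene. Bglap lies on the minus strand at chr3:88384417-88384716 with its match 132 bases before the start. Spp1 lies on the plus strand at chr5:104434861-104435160 with its match 128 bases before the start, Mmp13 on the plus strand at chr9:7272264-7272563 with its match 118 bases before the start, and Ibsp on the plus strand at chr5:104299037-104299336 with no match in the window.
Bglap: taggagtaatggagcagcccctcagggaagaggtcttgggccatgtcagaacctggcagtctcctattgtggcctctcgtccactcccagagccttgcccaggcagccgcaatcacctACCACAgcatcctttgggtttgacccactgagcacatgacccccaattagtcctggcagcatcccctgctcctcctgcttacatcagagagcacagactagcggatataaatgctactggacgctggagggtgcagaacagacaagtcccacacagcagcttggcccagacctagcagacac
Spp1: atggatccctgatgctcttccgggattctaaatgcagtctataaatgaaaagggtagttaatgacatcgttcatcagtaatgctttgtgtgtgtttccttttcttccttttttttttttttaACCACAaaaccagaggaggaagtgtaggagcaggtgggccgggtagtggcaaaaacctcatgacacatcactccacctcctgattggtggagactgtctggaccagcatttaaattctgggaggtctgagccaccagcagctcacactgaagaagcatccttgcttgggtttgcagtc
Mmp13: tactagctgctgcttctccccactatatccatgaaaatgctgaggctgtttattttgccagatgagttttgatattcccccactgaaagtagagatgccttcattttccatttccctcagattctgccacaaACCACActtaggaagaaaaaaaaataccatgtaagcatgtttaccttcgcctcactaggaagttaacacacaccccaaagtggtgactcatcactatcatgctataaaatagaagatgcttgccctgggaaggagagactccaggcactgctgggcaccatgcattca
Ibsp: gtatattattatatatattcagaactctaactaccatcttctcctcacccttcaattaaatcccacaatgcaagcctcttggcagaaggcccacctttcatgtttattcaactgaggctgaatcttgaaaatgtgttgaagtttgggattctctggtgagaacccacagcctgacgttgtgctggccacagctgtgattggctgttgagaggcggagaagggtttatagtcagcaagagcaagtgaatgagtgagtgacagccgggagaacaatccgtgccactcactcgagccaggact
Of all 32851 windows in the RefSeq table, 16.8% held the motif. By gene, 18.9% of 27025 genes held it in any window, and so did 6 of the 18 genes among the first 25 by ratio that had a window. Those 6 were Bglap, Dmp1, Mmp13, Serpinf1, Sparc and Spp1. A match is a string of letters and not a shown binding site.

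Bone matrix genes had the widest gap to other cells. Bglap was at 2094 CPM in stromal cells of WT 3, 2045 in WT 4, 55704 in Upf3b-null 1 and 2528 in Upf3b-null 4, a mean of 15593 ± 26742 CPM (SD, n = 4) against 18.6 CPM in other cells. Its ratio of stromal to other cells, with 20 CPM added to both, was 404, the largest among genes with a mean of at least 200 CPM. One library set that value, since without Upf3b-null 1 the ratio was 54.5 and Bglap ranked 8th. In the small libraries Bglap reached 28196 CPM in WT 2 and was at 0 in Upf3b-null 2 and 3. Bglap2 (6805 CPM on average) and Bglap3 are near-identical copies beside Bglap, so that the split of reads among the 3 genes is uncertain.

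Spp1, a phosphoprotein that binds bone mineral, was more even. It was at 23458 CPM in WT 3, 8069 in WT 4, 22396 in Upf3b-null 1 and 13644 in Upf3b-null 4 (16892 ± 7344 CPM) against 47.8 CPM in other cells. The genotypes overlapped, and without Upf3b-null 1 it had the largest ratio of all, 213. Ibsp, which nucleates mineral, was at 1333, 1895, 3518 and 1353 CPM in the same order (2025 ± 1029 CPM). Mmp13, the collagenase of cartilage and bone, was at 6864 CPM in WT 3 and between 1176 and 1961 CPM in the other 3 libraries. Dmp1, a matrix protein of osteocytes and late osteoblasts, averaged 682 ± 405 CPM and was detected in only 16.0% of the cells, against 92.5% for the collagen-binding glycoprotein Sparc.

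The 3 collagens of the rule were Col1a1 at 16070, 12411, 46083 and 9201 CPM in WT 3, WT 4, Upf3b-null 1 and Upf3b-null 4, Col1a2 at 14404, 12292, 36273 and 10493 CPM, and Col3a1 at 3922, 2818, 1683 and 1540 CPM. Upf3b-null 1 was highest for both type I chains, while Col3a1 was higher in both WT libraries than in both Upf3b-null ones. The rule used these genes to choose the cells, so this order is a description only. Genotypes did not overlap for 27.8% of all genes tested in the same libraries. In each library the type I chains were close to each other in level, and the lowest of their 8 values was above the highest Col3a1 value.

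**Figure D1:**
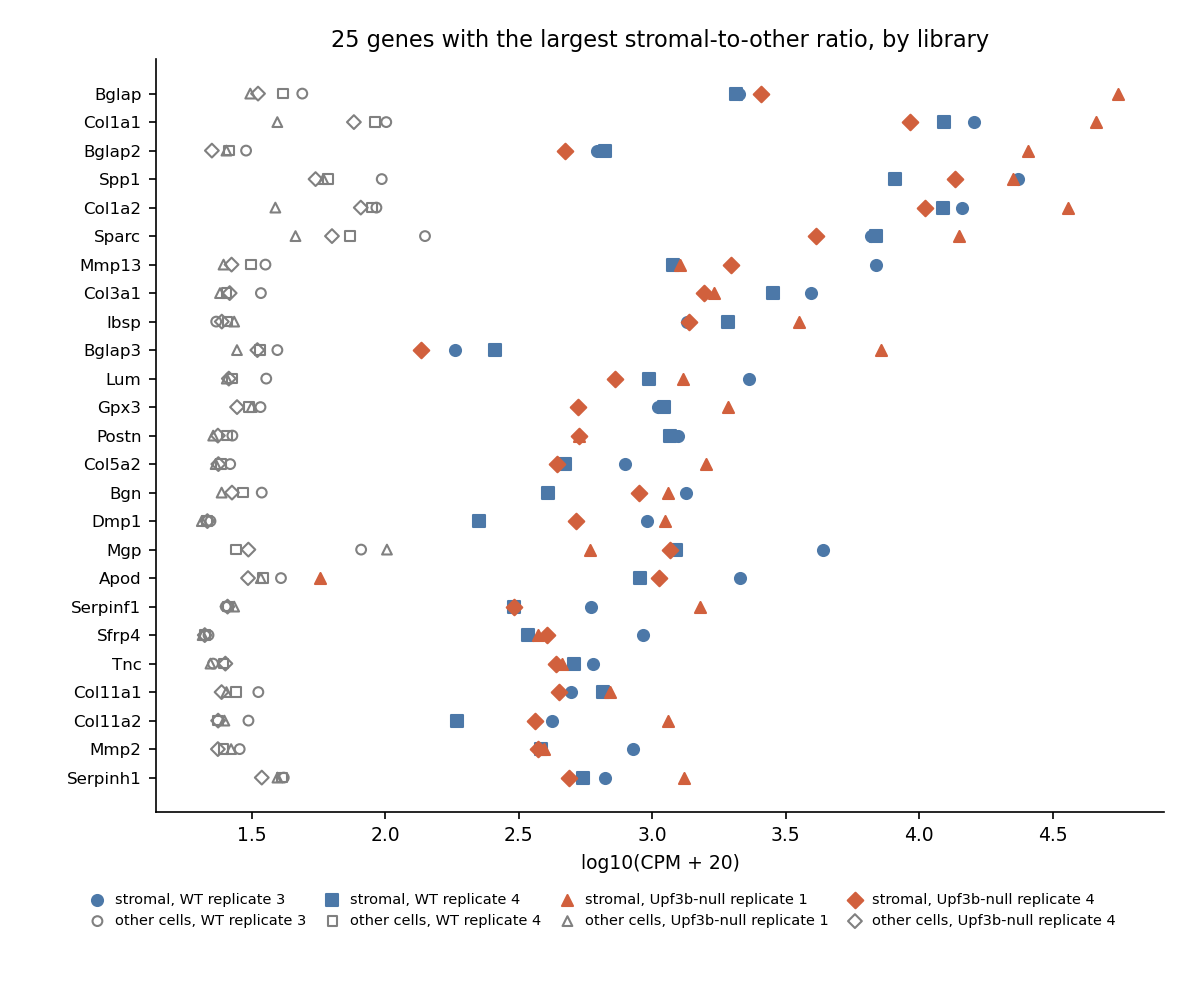
The 25 genes with the largest stromal-to-other ratio (rows, largest on top), with the level as log10(CPM + 20) on the horizontal axis. Filled symbols are stromal cells and open grey symbols all other cells, 1 symbol for each of the 4 libraries with at least 10 stromal cells. The genes were ranked by this difference in the same libraries, so the gap between filled and open symbols is a description, and Upf3b-null 1 lies far to the right for Bglap, Bglap2 and Bglap3.

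Of the 25 genes with the largest ratio, 21 stayed among the first 25 without Upf3b-null 1. Sparc was at 6607, 6876, 14141 and 4099 CPM in WT 3, WT 4, Upf3b-null 1 and Upf3b-null 4, a ratio of 98.3. Lum and Bgn, the small leucine-rich proteoglycans lumican and biglycan that bind collagen fibrils, averaged 1310 ± 698 and 925 ± 402 CPM. Postn (periostin, a matricellular protein of periosteum and fibrous tissue) averaged 849 ± 391 CPM, and Tnc (tenascin C) was the most even of those named, at 481 ± 73.4 CPM. Mgp, an inhibitor of mineralisation, was at 4332 CPM in WT 3 and between 564 and 1208 CPM in the other 3, and Apod, an apolipoprotein of fibroblasts, was at 36.9 CPM in Upf3b-null 1 and at 876 CPM or more in the other 3. Serpinh1, the chaperone HSP47 that folds collagen in the endoplasmic reticulum, averaged 734 ± 380 CPM against 19.1 CPM in other cells. The remaining genes of the first 25 were Gpx3, Col5a2, Serpinf1, Sfrp4, Col11a1, Col11a2 and Mmp2.

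By level alone, the first 15 genes held transcripts that many OE cells share as well as Col1a1, Col1a2, Spp1, Bglap, Sparc and Bglap2. Malat1 was highest at 47431 CPM, and mitochondrial transcripts filled 6 of the first 15 places. Hbb-bs at 12706 CPM and Hba-a1 at 8270 CPM, the haemoglobin chains, stood 9th and 11th, and since haemoglobin genes are near-identical copies their split is uncertain. Haemoglobin was unevenly spread, with erythroid markers summing to 67730 CPM in WT 4, 31398 in Upf3b-null 4, 4732 in WT 3 and 607 in Upf3b-null 1.

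The lists of matrix genes are described by how many members were at least 4-fold above other cells, with the rule genes left out. Over all genes with at least 10 stromal UMIs this was 183 of 8172 (2.24%). Members with at least 10 stromal UMIs are the ones counted, which favours genes that are high in these cells, and the lists were chosen as genes of stromal cells, so the counts carry no test. Fibrillar collagens had 4 of 8 members raised, and other collagens 8 of 18, led by the type VI chains Col6a1 (361 CPM), Col6a3 (285 CPM) and Col6a2 (274 CPM). Enzymes and chaperones of collagen synthesis had 9 of 25, with the procollagen C-proteinase enhancer Pcolce at 417 CPM and the crosslinking enzyme Lox at 254 CPM. The general secretory chaperones Ppib and P4hb were at 342 and 231 CPM in stromal cells against 232 and 113 CPM in other cells.

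Small leucine-rich proteoglycans had 7 of 9 members raised, with Dcn (decorin) at 959 ± 496 CPM. Matrix glycoproteins had 18 of 29, with Fn1 (fibronectin) at 543 CPM. Matrix proteases and their inhibitors had 9 of 15, with Timp3 at 567 CPM, Timp2 at 543 CPM and Mmp2 (gelatinase A) at 480 CPM. Secreted signals had 5 of 28, with Igfbp5 at 1321 ± 1171 CPM, Igfbp4 at 693 CPM, the chemokine Cxcl12 at 536 ± 667 CPM and the Wnt inhibitor Sfrp2 at 369 CPM. Mesenchymal receptors and transcription factors had 7 of 20. Runx2 averaged 257 ± 169 CPM and was detected in 37.4% of the cells, Prrx1, a limb and head mesenchyme factor, averaged 190 CPM, and Pdgfra, the receptor used to mark fibroblasts, 132 CPM. Ebf1 was alike in stromal and other cells (719 against 691 CPM).

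Housekeeping and response lists had no member raised 4-fold. This held for 0 of 14 factors of NMD and the exon junction complex, 0 of 18 classic NMD substrates, 0 of 16 immediate early and heat shock genes and 0 of 11 interferon-stimulated genes. Over all genes the rule did not use the share was 2.24%, so 0 in lists of this size is close to that share. Summed over the list, NMD and exon junction complex factors were at 744 CPM in stromal and 860 CPM in other cells, and NMD substrates at 2705 and 2963 CPM.

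Bone-matrix cells and the remaining stromal cells differed in which collagen they held. In bone-matrix cells Col1a1 was at 60995 CPM, against 3695 CPM in the other 132 stromal cells. For Col1a2 the values were 49447 and 4845 CPM. Col3a1 ran the other way, at 514 CPM in bone-matrix and 3030 CPM in remaining cells, with a UMI in 14 of 55 (25.5%) and 84 of 132 (63.6%). The median cell held 239 collagen UMIs in the former and 16 in the latter. These are pooled values of cells that share libraries, 33 of the 55 bone-matrix cells coming from Upf3b-null 1, and they carry no test.

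Pooled over libraries, the share of mixed cells was lower from bin to bin of collagen UMIs, as a description with no test. Among the 39 cells with 5 to 9 collagen UMIs, 20 (51.3%) were mixed and 1 was a bone-matrix cell. Among the 46 with 100 to 1752, 5 (10.9%) were mixed and 34 (73.9%) were bone-matrix cells. Cells under 25 and cells with 25 or more collagen UMIs were mixed in 3 of 12 and 0 of 20 cases in WT 3, 8 of 14 and 3 of 13 in WT 4, 2 of 11 and 2 of 39 in Upf3b-null 1, and 26 of 38 and 14 of 21 in Upf3b-null 4. In Upf3b-null 4, which held most mixed cells, the shares were thus close (68.4% and 66.7%), and the bins hold different libraries. Sparc, which the rule did not use, was at 653 CPM in the former, 2309 and 4102 CPM in the bins between, and 21970 CPM in the latter. Dcn varied less, at 605 CPM in the lowest bin and at 1112 to 1269 CPM in the other 3.

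Clustering split the 187 cells into 10 clusters, which are described by their leading genes. Of these, 6 with 127 cells were led by genes of connective tissue or bone. Cluster 2 (32 cells) was led by Aspn, Gpha2, Fmod, Col3a1, Acan and Omd. It had the highest Col3a1 level (9774 CPM), with the small proteoglycans asporin (Aspn) and osteomodulin (Omd) in 78.1% and 75.0% of its cells, Postn at 3301 CPM and the phosphatase Alpl at 1085 CPM. Of its first 10 genes, 1 came from each of the chondrocyte, tenocyte, osteoblast and stromal marker sets. The rest were in no marker set, and the cluster was left unnamed.

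Cluster 3 (31 cells) had among its leading genes Apod (7977 CPM), Inmt, Col8a1 and Mfap4, with Mgp at 7062 CPM, Dcn at 2734 CPM and the growth factor Igf1 at 904 CPM. It was left unnamed too. Cluster 4 (23 cells) was osteoblast-like. It was led by Bglap3, Bglap2, Bglap and Ifitm5, with Bglap at 93333 CPM, Col1a1 at 75155 CPM, Col3a1 at 186 CPM and a median of 480 collagen UMIs per cell.

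Cluster 5 (23 cells) was led by Mmp13 (17015 CPM), Spp1 (114329 CPM), Sfrp4, the pyrophosphate transporter Ank and Dmp1 (4079 CPM), with Ibsp at 5922 CPM and Bglap at 1105 CPM. With 1 osteoblast marker among its first 10 genes it was left unnamed, although 16 of its 23 cells were bone-matrix cells. Cluster 6 (13 cells) was adventitial fibroblast-like, with elastin (Eln, 4204 CPM), Pi16 (2469 CPM), Mfap5 and Clec3b. Cluster 10 (5 cells) was marrow reticular-like, with Cxcl12 at 18235 CPM, Lepr at 1326 CPM, Vcam1, Adipoq and Lpl.

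The other 4 clusters, with 60 cells, were led by genes of other cell types and were left unnamed. Cluster 1 (34 cells) was led by the neutrophil granule genes Elane, Prtn3 and Mpo, the antimicrobial lectin Reg3g and haemoglobin genes. Elane, Prtn3 and Mpo were found in only 14.7, 17.6 and 11.8% of its cells, Reg3g in 38.2% and Hbb-bs in 91.2%. Of its cells 17 were mixed and 15 were bone-matrix cells, with Col1a1 at 31664 CPM. Its osteoblast markers summed to 31580 CPM, against 28102 CPM in the other stromal cells. Cluster 7 (12 cells) was led by Stoml3 and Gnal of the olfactory cilium, and 11 of its cells were mixed. Cluster 8 (9 cells) was led by Sox11 and other genes of immature neurons, and cluster 9 (5 cells) by Coch, Ascl3, Cftr and Foxi1, genes of microvillar cells and ionocytes. Median collagen UMIs were 7, 13 and 8 in clusters 7, 8 and 9.

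**Figure D2:**
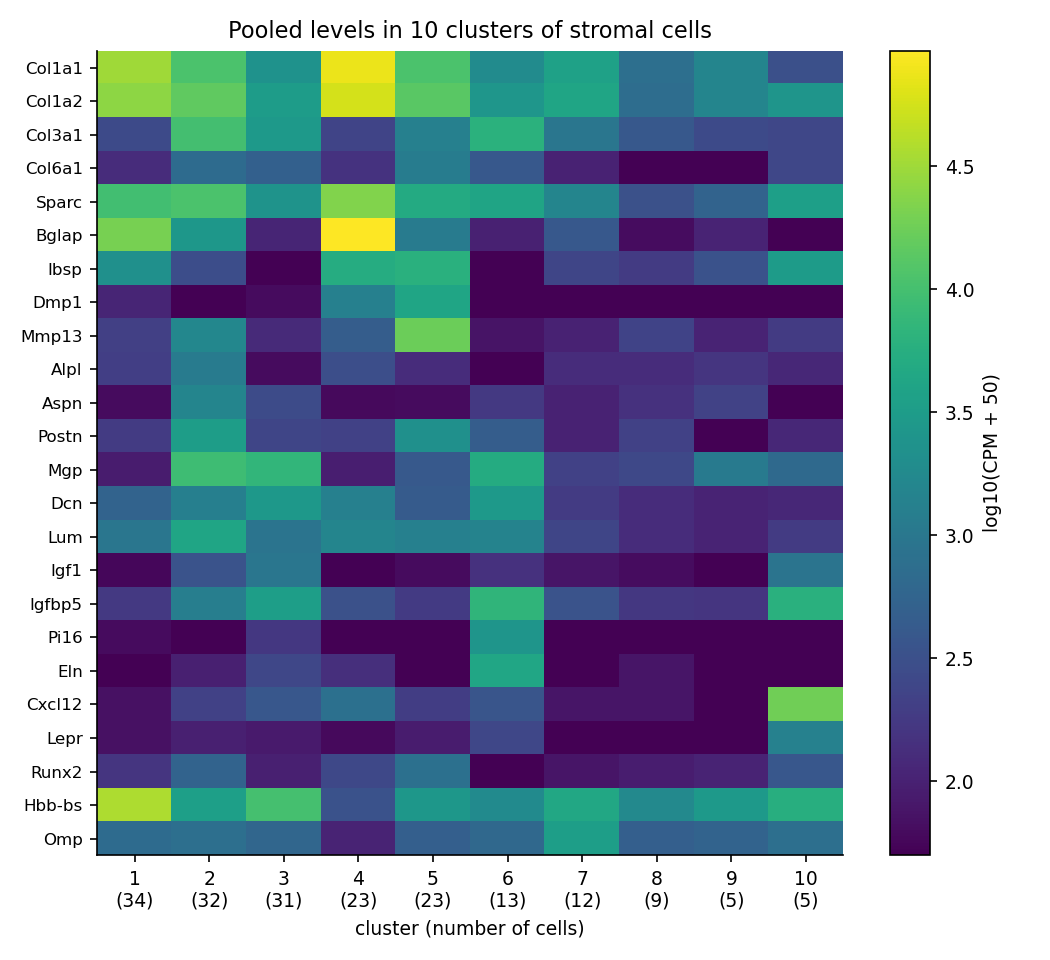
Levels of 24 genes (rows) in the 10 clusters of stromal cells (columns, cells in parentheses), as log10(CPM + 50) of UMIs pooled over the cells of a cluster. Bglap is brightest in cluster 4, Mmp13 in cluster 5, Pi16 and Eln in cluster 6 and Cxcl12 and Lepr in cluster 10, while Col3a1 is highest in cluster 2.

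The libraries did not hold the same clusters. Of the 23 osteoblast-like cells in cluster 4, 19 were in Upf3b-null 1, 2 in WT 1 and 2 in WT 2. Upf3b-null 4, with 59 stromal cells against 50, had none of cluster 4, although 11 of its cells were bone-matrix cells. Cluster 5 had 6 cells in WT 3, 3 in WT 4, 9 in Upf3b-null 1 and 5 in Upf3b-null 4. Upf3b-null 4 held all 5 cells of cluster 10 and 16 of the 34 of cluster 1. Cluster 2 had 11 of its cells in WT 3 and 8 in WT 4. Cluster 3 was present in 6 libraries, with 16 of its cells in Upf3b-null 4 and 0 in Upf3b-null 1. Cluster 4 thus held 38% of the stromal cells of Upf3b-null 1, 2 of 6 in WT 1 and 2 of 7 in WT 2. Cluster 10 lay fully in 1 library and cannot be told apart from it. The 1000 variable genes behind the clusters were not cleared of genes that differed between genotypes, so cluster sizes were not compared between them.

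**Figure D3:**
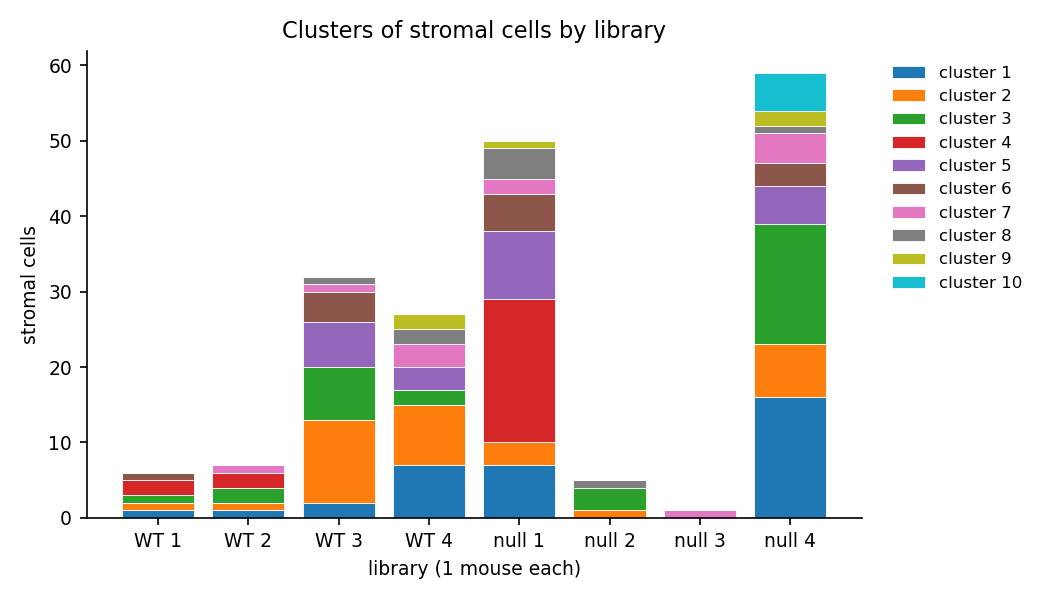
Number of stromal cells of each cluster (colours) in each of the 8 libraries, 1 mouse per bar. Upf3b-null 1 holds 19 of the 23 cells of cluster 4, and Upf3b-null 4 holds the 5 cells of cluster 10.

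The share of stromal cells did not differ between genotypes beyond the spread between mice. It was 0.328% in WT 1, 0.485% in WT 2, 1.15% in WT 3 and 0.877% in WT 4. In Upf3b-null mice it was 0.699%, 0.375%, 0.0585% and 1.01% in libraries 1 to 4. Both groups held low and high libraries and they overlapped over most of their range. Means were 0.709 ± 0.372% and 0.536 ± 0.411% (SD, n = 4 each), a difference of -0.173 percentage points with p = 0.571 in a two-sided exact permutation test over the 70 arrangements, which can reach 0.0286 at least.

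With each cell thinned to 1500 UMIs before the collagen threshold, which left out no cell, the means were 0.590 ± 0.368% and 0.428 ± 0.348% (p = 0.600 in the same exact test). Exact binomial 95% intervals, which cover counting error only, ran from 0.00148 to 0.325% in Upf3b-null 3 and from 0.770 to 1.30% in Upf3b-null 4. These 2 mice of 1 genotype thus differed by more than counting error. Neutrophils took 5.08, 9.0, 0.609 and 7.82% of cells in WT 1 to 4 and 7.92, 6.97, 12.9 and 24.4% in Upf3b-null 1 to 4. Their part in the shares was read by leaving them out of the total, which gave means of 0.746% and 0.641% (p = 0.743, exact test).

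**Figure D4:**
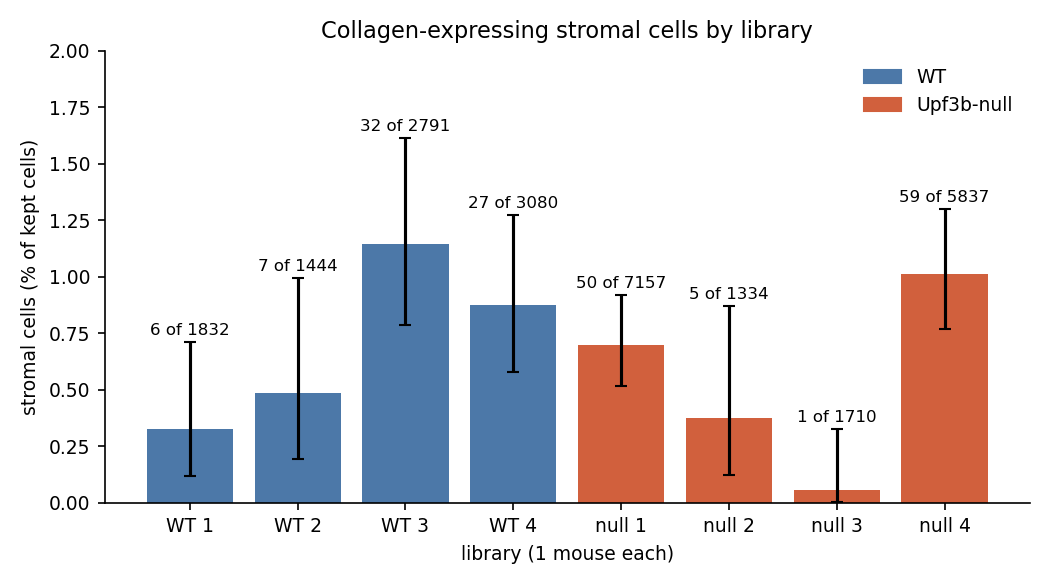
Stromal cells as a percent of kept cells in each library (1 mouse each), with the number of cells above each bar. Error bars are exact binomial 95% intervals, for counting error only. WT 3 (1.15%) and Upf3b-null 4 (1.01%) are highest and Upf3b-null 3 (0.0585%) is lowest.

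Upf3b itself followed the labels. Stromal cells of WT 1 to 4 held 2, 0, 6 and 11 Upf3b UMIs, 19 in 11 cells, and all 4 Upf3b-null libraries held 0. In the other cells it was at 58.2, 63.3, 76.9 and 88.5 CPM in WT 1 to 4 and at 0.482, 0.212, 1.24 and 1.00 CPM in Upf3b-null 1 to 4. Over the 4 larger libraries the stromal level was at least 9.46-fold lower in Upf3b-null mice, with the floor set at 3 counts over the pair of Upf3b-null libraries. Upf3a, the paralog of Upf3b, had 27 UMIs in 25 stromal cells, 7 in WT 3, 6 in WT 4, 7 in Upf3b-null 1 and 7 in Upf3b-null 4. The ratio of pooled levels in Upf3b-null over WT was 0.645 with a 95% counting interval of 0.281 to 1.49.

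Between genotypes, stromal cell sums of WT 3 and WT 4 were compared with those of Upf3b-null 1 and Upf3b-null 4, the libraries with at least 10 stromal cells. Normalised CPM below are from this fit and are scaled by library. Of the 2633 genes tested that the rule did not use, 7 (0.266%) were called at a Benjamini-Hochberg adjusted p of 0.05 by the quasi-likelihood test of edgeR. At an unadjusted p under 0.05 there were 73 genes, and with DESeq2 1 gene passed, Elane. The 6 higher calls were the granule genes Elane, Prtn3, Ctsg and Mpo, with Plac8 and Hp, and the cartilage proteoglycan Acan was the 1 lower call.

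Elane, the elastase of neutrophil granules, had 2 UMIs in WT 3, 2 in WT 4, 272 in Upf3b-null 1 and 84 in Upf3b-null 4. Both Upf3b-null libraries were above both WT libraries, with a log2 fold change of 5.94 ± 0.89 (SE) and an adjusted p of 7.08e-05. The UMIs lay in very few cells, since 350 of the 360 in all libraries came from 3 cells, 270 of them from 1 cell, and 352 were in cluster 1. The same order was present outside the stromal set, where Elane was at 36.4 CPM in WT 3, 28.2 in WT 4, 661 in Upf3b-null 1 and 184 in Upf3b-null 4. WT 1 and WT 2, outside the fit, were at 241 and 437 CPM there, above Upf3b-null 4, so that the WT pair of the fit was the lowest of all 8 libraries. The other 5 higher calls, below, were also lowest in WT 3 and WT 4 outside the stromal set.

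The same held for the other granule genes. Prtn3 (proteinase 3) had 0, 1, 116 and 44 UMIs in WT 3, WT 4, Upf3b-null 1 and Upf3b-null 4, with 154 of 162 in 3 cells (pooled ratio 95.8, 95% counting interval 17.0 to 3807, adjusted p 0.000144). Ctsg (cathepsin G) had 0, 0, 54 and 34 UMIs, with 84 of 88 in 3 cells, and was at least 17.6-fold higher in Upf3b-null mice with a floor of 3 counts over the WT pair (adjusted p 0.000303). Mpo (myeloperoxidase) had 5, 0, 80 and 71 UMIs, with 145 of 156 in 3 cells (log2 fold change 4.29 ± 0.87, adjusted p 0.00685). Its log2 fold change depended on the WT library kept, at 9.16 without WT 3 and 3.28 without WT 4.

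Plac8, a gene of myeloid and other immune cells, had 5, 3, 49 and 125 UMIs in 37 cells of all libraries (log2 fold change 3.80 ± 0.78, adjusted p 0.00685), and WT 1, outside the fit, had 32. With all 8 libraries its log2 fold change was 0.34 (adjusted p 0.999 in edgeR). Hp (haptoglobin) had 1, 1, 31 and 30 UMIs (pooled ratio 18.3, 95% counting interval 4.84 to 154, adjusted p 0.0142). Of its 64 UMIs in all libraries, 27 were in 1 cell of Upf3b-null 1, and 14 were in cluster 10, all in Upf3b-null 4, where Hp is among the leading genes (928 CPM). Outside the stromal set Plac8 was at 85.6 and 174 CPM in WT 3 and WT 4 and at 311 to 593 CPM in the other 6 libraries, and Hp at 32.8 and 87.4 CPM against 209 to 341 CPM. In each of the 6 genes both Upf3b-null libraries were above both WT ones, and 27.8% of all genes tested had groups that did not overlap. Mixed cells were 3 and 11 in WT 3 and WT 4 and 4 and 40 in Upf3b-null 1 and 4. Without them 0 genes were called, 44 having an unadjusted p under 0.05, and of the 7 genes only Acan was abundant enough to be tested. Acan had 0 UMIs in mixed cells, so its counts were the same in that fit, where its adjusted p was 0.992 in edgeR. Its fitted log2 fold change was -7.00 there, against -7.20 in the main fit.

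Acan (aggrecan, the large proteoglycan of cartilage) had 19 UMIs in WT 3, 10 in WT 4 and 0 in both Upf3b-null libraries of the fit, at least 16.1-fold lower with a floor of 3 counts over the Upf3b-null pair (adjusted p 0.00685). Of its 31 UMIs, 15 were in 1 cell and 30 were in cluster 2, and Upf3b-null 2, outside the fit, had 2. In that small library 2 UMIs are 109 CPM, between WT 4 (78.9 CPM) and WT 3 (181 CPM), while WT 1 and WT 2 were at 0. Cluster 2 had 19 of its 32 cells in WT 3 and WT 4. With the cells of clusters 1, 7, 8 and 9 left out, 0 genes were called and 29 had an unadjusted p under 0.05. Acan, whose cluster is not among them, lost 1 UMI, in WT 4, and had an adjusted p of 0.207 in edgeR. Its fitted log2 fold change was -7.10 there, against -7.20 in the main fit. With all 8 libraries 0 genes were called, of 781 tested and 14 at an unadjusted p under 0.05. One library also decided the count, which was 0 without WT 3 (114 unadjusted), 4 without WT 4, 22 without Upf3b-null 1 and 77 without Upf3b-null 4. Without WT 3 the 6 higher genes kept their direction against WT 4 alone, a comparison that rests on a single WT library. Elane then had a log2 fold change of 6.14 with a wider SE, 1.44 against 0.89.

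None of the lists of stromal genes had a member called in the edgeR fit of all 4 libraries or in DESeq2. At an unadjusted p under 0.05 were 9 of their 91 tested members (9.89%), against 73 of 2633 (2.77%) over all genes the rule did not use, and none of the 9 passed the adjustment. Over all genes tested the median log2 fold change was 0.02. The median of the fibrillar collagens was 0.60 over 5 tested members, with Col11a2 (a type XI chain) at 473, 193, 1637 and 433 normalised CPM in WT 3, WT 4, Upf3b-null 1 and Upf3b-null 4 (1.64 ± 0.68, unadjusted p 0.0201, adjusted p 0.999 in edgeR). Its groups overlapped. Col5a2 (0.97 ± 0.63), Col11a1 (0.22 ± 0.62) and the rest had unadjusted p-values above 0.05.

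Other collagens had a median of -0.85 over 8 members. Col12a1, a fibril-associated collagen, was at 450 and 322 normalised CPM in the WT libraries and 69.2 and 172 in the Upf3b-null ones (-1.65 ± 0.68, unadjusted p 0.0182 in edgeR), and Col22a1 at 113, 45.9, 484 and 63.7 (1.79 ± 0.84, unadjusted p 0.0422 in edgeR). Collagen synthesis genes had a median of 0.17 over 16 members, 0 of them at an unadjusted p under 0.05. Serpinh1 was at 765, 616, 1883 and 586 normalised CPM (0.84 ± 0.62) and Pcolce at 653, 294, 968 and 249 (0.36 ± 0.67), both overlapping.

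Small leucine-rich proteoglycans had a median of -0.47 over 7 members. Aspn was at 765 and 358 normalised CPM in WT and 246 and 140 in Upf3b-null libraries (-1.54 ± 0.66, unadjusted p 0.0244 in edgeR). Fmod (fibromodulin) was at 158 and 276 against 53.8 and 44.6 (-2.13 ± 0.74, unadjusted p 0.00617, adjusted p 0.813 in edgeR). Both genes lead cluster 2, and their groups did not overlap, as for 27.8% of all genes tested. Lum (-0.47 ± 0.59), Dcn (-0.40 ± 0.59) and Bgn (0.45 ± 0.61) overlapped between genotypes.

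Matrix glycoproteins had a median of -0.11 over 19 members. Mgp was at 5120, 1406, 822 and 1440 normalised CPM (-1.53 ± 0.60, unadjusted p 0.0153 in edgeR) and the elastic fibre protein Fbln5 at 78.8, 0, 215 and 147 (2.26 ± 0.87, unadjusted p 0.0144 in edgeR). Sparc had a log2 fold change of 0.70 ± 0.64. Proteases and inhibitors had a median of -0.38 over 10 members, with the membrane-bound collagenase Mmp14 at 608, 322, 69.2 and 229 normalised CPM (-1.61 ± 0.68, unadjusted p 0.0216 in edgeR) and Mmp13 at -1.14 ± 0.66. Receptors and transcription factors had a median of -0.22 over 13 members with 0 at an unadjusted p under 0.05, and Runx2 was at -0.76 ± 0.66.

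Secreted signals had a median of -0.11 over 13 members. Cxcl12, the chemokine that holds blood stem cells in marrow, was at 236 and 36.8 normalised CPM in WT and 584 and 1899 in Upf3b-null libraries (3.21 ± 0.80, unadjusted p 0.000497, adjusted p 0.109 in edgeR). Of its 417 stromal UMIs in all libraries, 275 were in the 5 cells of cluster 10, all in Upf3b-null 4. It was called with DESeq2 size factors in edgeR (adjusted p 0.0163), with no filter on low counts (0.00606) and without Upf3b-null 1 (9.69e-06). Igfbp5 (-0.18 ± 1.35) and Igfbp4 (0.22 ± 0.64) overlapped.

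The lists tied to the gene deleted gave no call either. Classic NMD substrates had 13 members tested with a median of -0.11, and Snhg6, a snoRNA host gene whose spliced RNA is an NMD target, was at 22.5 and 45.9 normalised CPM in WT and 246 and 159 in Upf3b-null libraries (2.5 ± 0.80, unadjusted p 0.00293, adjusted p 0.430 in edgeR). Only 4 of 18 NMD and exon junction complex factors were abundant enough to be tested, with a median of -0.05 and 0 at an unadjusted p under 0.05. Immediate early and heat shock genes had a median of -0.12 over 10 members, 0 of them at an unadjusted p under 0.05. Interferon-stimulated genes had a median of 0.70 over 7 members, 2 of them at an unadjusted p under 0.05, the class I antigens H2-D1 (1.49 ± 0.66) and H2-K1 (1.81 ± 0.72).

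Osteoblast markers had 8 of 9 members tested and 0 called, with a median of 0.79. Bglap was at 2475 and 2380 normalised CPM in WT and 81176 and 3179 in Upf3b-null libraries (4.12 ± 1.75, adjusted p 0.999 in edgeR), so that the fold change came from Upf3b-null 1 alone. With no filter on low counts, on the same 4 libraries, Bglap was called (4.34 ± 0.71, adjusted p 1.05e-05 in edgeR), as were 24 of 14690 genes in all. Among these, list members other than those called above were Bglap, Cxcl12 and Vcam1 of the stromal lists and markers, Upf3b, Ly6c2 and the basal cell gene Krt15. Ibsp was at 0.85 ± 0.58. The spread behind these values was wide, with a common biological coefficient of variation of 0.447. Leaving out 1 Upf3b-null library brought list members past the threshold in edgeR, each time against a single Upf3b-null library, which is assumed to vary as the others do. Without Upf3b-null 4, Bglap (5.01), Bglap2 (5.62), Ifitm5 (2.83), Phex (2.67), Col11a2 (2.25), Col22a1 (2.57) and Snhg6 (2.73) were called higher and Mmp14 (-2.77), Col12a1 (-2.51) and Col8a1 (-3.87) lower, as log2 fold changes of Upf3b-null 1 over the WT pair. Without Upf3b-null 1, Cxcl12 (3.85) was called higher and Omd (-3.30) lower. None of these 12 was called in both cases, while Acan and the monocyte gene Ly6c2 were. The remaining list members past the threshold in these fits were markers of blood, epithelial, gland and cycling cells. Each fit rests on a single Upf3b-null library, so no share of list members is read from it. With 2 mice a group, fold changes of the size seen for Serpinh1 or Sparc were not separable from the spread between mice.

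Transcripts of stromal genes were also present in both bulk assays of mature neurons, which are not known as a source of fibrillar collagen. In bulk samples fewer cells of a type and less RNA per cell cannot be told apart. Upf3b, the gene deleted, was at 71.0, 69.1, 126 and 77.8 normalised CPM in WT 1 to 4 and at 0, 0.389, 0 and 0 in Upf3b-null 1 to 4 of the sorted-neuron RNA-seq. In RiboTag it was at 193, 199 and 157 in WT and 0.283, 0.452 and 3.06 in Upf3b-null samples.

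Col1a1 (transcript ENSMUST00000001547, chr11:94936224-94953042, plus strand, GRCm38) was at 323, 310, 258 and 233 normalised CPM in WT 1 to 4 and at 121, 609, 506 and 144 in Upf3b-null 1 to 4 of the RNA-seq. Upf3b-null 2 and 3 were above all WT samples and Upf3b-null 1 and 4 below all of them, so that the log2 fold change was 0.29 ± 0.46 with an adjusted p of 0.783 in edgeR. Col1a2 followed the same order, at 153, 142, 168 and 173 against 82.3, 375, 320 and 93.9, and so did Col3a1, at 32.4, 24.9, 27.1 and 24.1 against 8.59, 66.8, 61.9 and 14.6. Their log2 fold changes were 0.47 and 0.48 with adjusted p-values of 0.624 and 0.692 in edgeR.

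Markers of some other cells moved with these values. Osteoblast markers summed to 47.5, 42.4, 49.0 and 55.1 CPM in WT and 26.6, 217, 169 and 27.5 CPM in Upf3b-null samples, neutrophil markers to 318, 274, 224 and 224 against 198, 1120, 1842 and 265 CPM, and macrophage markers to 64.3, 44.3, 21.0 and 68.2 against 47.4, 308, 270 and 65.6 CPM. Mural markers summed to 379, 356, 416 and 344 against 238, 780, 790 and 410 CPM, chondrocyte markers to 32.9, 33.6, 47.5 and 59.99 against 13.6, 96.9, 103 and 52.6 CPM, and sustentacular markers to 504, 518, 558 and 732 against 444, 1073, 1381 and 1753 CPM. Upf3b-null 2 and 3 were above all 4 WT samples in every marker set that was summed except the erythroid and mOSN sets, and Upf3b-null 4 was above both for sustentacular markers. Erythroid markers were lowest in Upf3b-null 2 (28.9 CPM) and mOSN markers in Upf3b-null 3 (3467 CPM). Whether the cells behind these markers had a part in the collagen values was not tested.

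Of 180 transcripts of the stromal lists in the RNA-seq table, 74 were abundant enough to be tested and 0 were called in edgeR, where 26 of all 11560 transcripts were (0.225%). At an unadjusted p under 0.05 there were 11, of 1688 among all transcripts, and with DESeq2 1 was called, of 239 among all. Of the 74, 50 had a positive log2 fold change, as had 52.6% of all transcripts tested. The median was 0.31 over the 74, against 0.02 over all transcripts. The secreted Wnt inhibitor Sfrp1, the 1 gene called by DESeq2, was at 18.4, 16.2, 11.9 and 20.6 normalised CPM in WT and 9.30, 78.5, 103 and 108 in Upf3b-null samples (2.15 ± 0.58, adjusted p 0.212 in edgeR). Upf3b-null 1 alone lay below the WT range. Without it 83 were tested and 6 called, against 433 of 12015 transcripts in all (3.60%), and all 6 were higher, namely Sfrp1, Igfbp5, Mmp14, Thbs1, Tgfb2 and Tgfb3.

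Of the same 180 transcripts, 130 were tested in RiboTag and 0 were called in edgeR, where 0 of all 14216 transcripts were (0%), with 202 of all and 3 of the stromal ones at an unadjusted p under 0.05. DESeq2 called 17 of all transcripts and 0 of the stromal ones. Col1a1 was at 412, 414 and 472 normalised CPM in WT and 388, 416 and 822 in Upf3b-null samples (0.32, adjusted p 0.965 in edgeR), Col1a2 at 407, 406 and 381 against 350, 382 and 654, and Col3a1 at 110, 93.4 and 95.8 against 84.6, 107 and 135. Upf3b-null 3 was highest for all 3 collagens, and its osteoblast markers summed to 553 CPM, against 129 to 209 CPM in the other 5 samples. That sample stood apart for many other genes too. Its chondrocyte markers summed to 639 CPM (79.3 to 126 CPM in the others), its endothelial markers to 165 CPM (49.9 to 78.3 CPM) and its macrophage markers to 271 CPM (47.6 to 76.8 CPM). Ptn was at 11.1 normalised CPM in it, against 158 to 173 in the others, and Ppib at 4.97 against 78.5 to 88.8. Without it the log2 fold changes were -0.11 for Col1a1, -0.13 for Col1a2 and -0.065 for Col3a1.

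**Figure D5:**
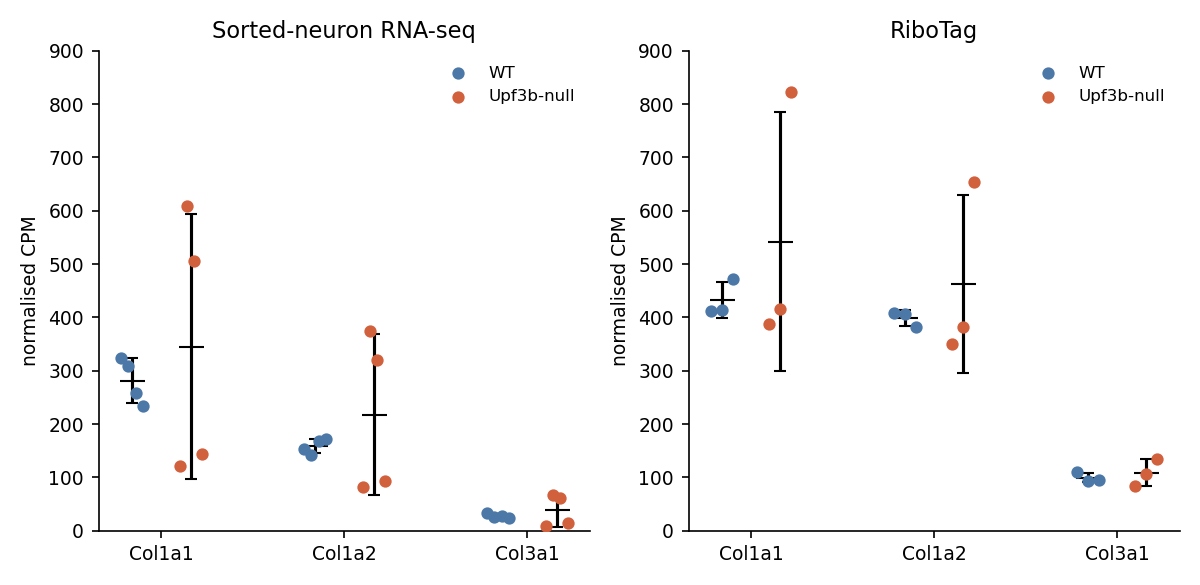
Normalised CPM of Col1a1, Col1a2 and Col3a1 in sorted-neuron RNA-seq (left, n = 4 each) and RiboTag (right, n = 3 each), 1 point per sample with the mean and SD in black. In RNA-seq, Upf3b-null samples lie both above and below the WT samples for each gene, and in RiboTag Upf3b-null 3 is highest for each.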

How the data were processed

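The authors mapped and filtered the scRNA-seq reads with Cell Ranger and deposited matrices of raw UMI counts per barcode and gene. Per the labels, the bulk reads were aligned with STAR 2.5.2b (mm10, GRCm38), and deposited read counts per transcript came from featureCounts (Subread). The protocol gives no strand setting, so overlapping genes cannot be told apart. GENCODE vM21 named 22646 of 23010 transcripts. Bulk samples held 1216784 to 3264827 (RNA-seq) and 2691023 to 7542665 (RiboTag) counts. No column was left unused.

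The members and gene lists were chosen with earlier results of these data known. No doublet caller was run, and mixed cells were marked by markers at 1% of UMIs. Stromal cells were clustered with scanpy 1.11.5 (10000 counts per cell, genes in at least 5 cells, 1000 variable genes, 15 components, 10 neighbours, Leiden resolution 1, Python 3.11.15). UMIs summed per library and bulk counts were fitted with edgeR 4.0.16 (R 4.3.3, TMM, filterByExpr, robust quasi-likelihood, Benjamini-Hochberg over all features), with DESeq2 1.42.0 as the alternative. The fits were tested on simulated data.

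Fewer than 20 genes were called between genotypes, so by rule the lists were described as well, naming up to 4 members by level and those at an unadjusted p under 0.05. By level, the rule named the first 25 genes by ratio (20 CPM added, at least 200 CPM) and the first 15 by CPM. It named the rule collagens and Upf3b in bulk. Genes named beyond it, for roles, clusters or bulk samples left out, were chosen after their values were seen. Of 400 list genes, 392 were in the matrices, and Gas5, Ighm, Snhg1, Snhg5, Snhg8, Snhg15, Trac and Zfas1 are not analysed here. Each scRNA-seq library is 1 mouse, while bulk samples are pools, so their p-values measure the spread between pools, part of which may be technical.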

Additional observations from a re-analysis of the deposited data

Results flagged for a closer look

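Of 32 groups of 4 libraries that were checked, 6 held a library far from the other 3 (gap to the nearest over the whole range above Dixon's 95% critical value), where chance gives about 1 in 20. Collagen RNA outside the stromal cells was at 123 CPM in Upf3b-null 4, with the next at 42.1 CPM. The rule used these collagen genes to choose the cells, so this case is a description only. Summed osteoblast markers in stromal cells were at 38389 CPM in WT 2, which rests on 7 cells, and at 87330 CPM in Upf3b-null 1, with the next of their groups at 5874 and 5285 CPM. Summed erythroid markers in stromal cells were at 67730 CPM in WT 4, with the next at 4732 CPM. Upf3b in sorted-neuron RNA-seq was at 126 CPM in WT 3, with the next at 77.8 CPM, and at 0.389 CPM in Upf3b-null 2, where the other 3 samples were at 0. With 3 samples at 0 any count in the fourth sample has to pass this limit, so that last case says nothing, and it leaves 5 of 31 groups. That count still holds the collagen case, so it cannot be set against the rate given by chance.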

How the results depend on the processing

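The difference in stromal share kept its sign and stayed outside the threshold under all alternatives run, from -0.589 to -0.104 points (p 0.343 to 0.875, exact tests) and from -0.332 to -0.0141 with 1 library left out. The count of 7 called genes did not hold. It was 1 with DESeq2, 11 with DESeq2 size factors in edgeR, 24 with no filter on low counts, 0 with at least 10 collagen UMIs, 0 without mixed cells, and, in alternatives added after seeing the data, 0 with all 8 libraries, 0 with all 8 libraries and a replicate block, and 0 without the clusters led by genes of other cell types. Leaving out 1 library gave 0 to 77. All 7 genes were called with the other size factors and with no filter, where 24 included Upf3b (log2 fold change -6.31) and Bglap (4.34). In the 5 alternatives with 0 calls, 1 or 2 of the 7 were abundant enough to be tested. Requiring 30 stromal cells leaves 1 WT library, and the 4 main libraries share only number 4, so those planned fits were not run. Stromal transcripts called in RNA-seq were 1 with DESeq2 and 0 to 6 with 1 sample left out, and in RiboTag 0 throughout. The fold change of Col1a1 in RNA-seq was -0.013 with a replicate block and from -0.13 to 0.57 with 1 sample left out. In RiboTag, leaving out 1 sample gave -0.11 to 0.50 for Col1a1, -0.13 to 0.36 for Col1a2 and -0.065 to 0.26 for Col3a1, none past the threshold. Causes were not tested. Deviations of same-numbered samples correlated at -0.158 to 0.000211 in RNA-seq and -0.465 to -0.174 in RiboTag, which gave no sign that numbers pair the samples. With so few samples a shared batch cannot be read from these values. By the paper's methods, cells for RNA-seq were sorted on 2 days, and it does not say which samples shared a day. With a replicate block the exact p of the share difference was 0.875 (smallest possible 0.125), and 0 stromal transcripts were called in RNA-seq and in RiboTag. Depth limits genes such as Upf3b and Upf3a, with 19 and 27 stromal UMIs.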
